A study of Drosophila melanogaster with 11 samples.

Results

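In Drosophila melanogaster, a CG number is the identifier that the genome annotation gives to a predicted gene, and it remains the gene's only symbol until someone names it. Of 5196 genes on these arrays whose symbol is a bare CG number and which were not placed on chromosome 4, 134 stood higher in third-instar larvae carrying both act-Gal4 and the transgene P than in either control cross, in males and in females. Each of the 134 had every P/act-Gal4 array above all 4 control arrays of its sex. Its P/act-Gal4 mean also exceeded the mean of those 4 controls by at least 0.5 on the log2 scale in each sex, and its controls differed between the sexes by less than 1. Each gene was represented by its brightest probeset, judged by the mean. The genes were selected on the measured levels with both transgenes against the controls, so those levels are given as a description with no test. The control levels entered the choice too, but the difference between the control crosses within a sex was not a criterion and was tested.

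The gene studied encodes HP1, a chromatin protein that binds methylated histone H3 and packs pericentric heterochromatin. It is known for silencing genes placed near heterochromatin, and in flies it is also found at active genes of the chromosome arms. The Gal4 activator, made here under the promoter of an actin gene, switches on transgenes that carry its binding sites, and the line HP1-21 is taken to carry such a transgene, made to lower HP1 by RNA interference. Genes with a bare CG number are not a functional class: they range from transporters and digestive enzymes to proteins with no recognised domain.

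Whole-larva RNA was hybridised to 11 Affymetrix Drosophila 2.0 arrays, of which 6 held male and 5 held female larvae. All larvae had the y w background. The act-Gal4 control carried the driver alone, the P control carried the transgene alone (read as line HP1-21), and P/act-Gal4 carried both. Each group of genotype and sex held 2 arrays, except the P/act-Gal4 females with 1. The design text names 2 independent populations without saying which array came from which, so replicates may be technical and p-values then measure only the spread between these arrays. For some arrays the strain or description label contradicts the title, and the titles were followed.

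The HP1 transcript checked the labels. Its log2 intensity was 8.35 and 8.39 in act-Gal4 control males, 8.03 and 8.07 in P control males, and 7.84 and 7.52 in P/act-Gal4 males, which were below all male controls. In females it was 8.04 and 8.03 with act-Gal4, 7.95 and 8.06 with P, and 8.02 for the array labelled P/act-Gal4 female, which lay within the range of its controls. Every female value with both transgenes below rests on that array. The 3′ probeset of eIF4a exceeded the 5′ one, a gauge of RNA integrity, by a log2 difference of 3.69 in P/act-Gal4 males against 4.32 and 4.97 in the act-Gal4 and P controls. It was 3.47 for the array labelled P/act-Gal4 female against 4.22 and 3.95, and its part in the results was not tested. Array medians of the log2 intensity lay between 3.93 and 3.97 in males and between 3.76 and 3.81 in females.

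The criteria were met in steps. Of the 5196 genes, 456 stood at least 0.5 higher in P/act-Gal4 males, 146 did so for the array labelled P/act-Gal4 female as well, and 139 of those had no overlap with the controls in either sex. The limit on the sex difference then left out 5. Chromosome and name aside, 341 genes met all criteria, or 2.85%. Among all 11983 genes, 23.0% had both P/act-Gal4 male arrays above the 4 male controls and 27.2% had the female array above its controls. By at least 0.5 the shares were 8.85% and 7.34%. Genes with a bare CG number met the criteria, chromosome aside, in 2.61% of cases and genes with other symbols in 3.03%, so a bare CG number was not the more frequent kind. The mirrored criteria for lower levels were met by 0.960% and 1.33%. Just inside the threshold lay CG2747, at 1.115 in males and 0.501 in females, CG30289, at 0.562 and 0.501, and CG8155, at 0.502 and 0.791. Just outside lay CG31637 (0.510 and 0.499), CG34276 (0.496 and 0.655) and CG4269 (0.491 and 0.728), and the members next to the threshold are thus not separated from these by the replicate spread of 0.129 (SD, log2).

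The median change of the 134 genes was 0.77 in males (quartiles 0.62 and 1.04) and 0.78 in females (0.62 and 1.08), against −0.01 over all genes in both sexes. A change of 1 or more was seen for 37 genes in males, 39 in females and 19 in both. Only CG4757 and CG2070 changed by 2 or more on the log2 scale in both. The gap between the lowest P/act-Gal4 array and the highest control array had a median of 0.48 in males and 0.55 in females. It was under 0.1 for 5 genes in males and 4 in females. The larvae were sampled whole, so more cells of a type and more RNA per cell cannot be told apart.

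CG4757, which encodes a carboxylesterase, had the highest smaller change, that is, the lower of its male and female changes. In males its log2 intensity was 4.36 and 4.28 in the P control, 3.93 and 4.10 in the act-Gal4 control, and 6.33 and 6.25 with both transgenes. In females the values were 5.44 and 5.67 in the P control, 4.19 and 4.11 in the act-Gal4 control, and 7.81 with both. The groups did not overlap in either sex, and the female P control lay well above the female act-Gal4 control. Against the mean of the controls the level was 4.35-fold higher in males and 7.76-fold higher in females.

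CG2070 encodes a short-chain dehydrogenase, a family that oxidises or reduces alcohols, steroids and retinoids. Male arrays read 5.53 and 5.63 (P control), 5.41 and 5.69 (act-Gal4 control) and 7.63 and 7.52 (both transgenes). Female arrays read 3.74 and 4.22, 6.30 and 6.32, and 8.50 in the same order. The male controls were level with each other, whereas the female act-Gal4 control stood far above the female P control, and the array with both transgenes far above either. The change was 4.02-fold in males and 10.2-fold in females, the highest female value of the set.

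CG14852 was at 5.97 and 5.87 in P control males, 7.55 and 7.61 in act-Gal4 control males and 8.75 and 8.85 with both transgenes. In females it was at 5.92 and 6.08, 6.05 and 6.05, and 7.69. The males showed a step from each group to the next, while the female controls lay together. CG13947 stepped in both sexes. Its male arrays read 6.62 and 6.38, then 8.43 and 8.37, then 9.55 and 9.46, and its female arrays 7.10 and 6.90, then 8.14 and 8.18, then 8.92.

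Among transporters, CG4822 encodes an ABC transporter of the G family, whose members move lipids and pigment precursors across membranes. Its male values were 6.62 and 6.74 in the P control, 7.37 and 7.34 in the act-Gal4 control and 8.32 and 8.40 with both transgenes. Its female values were 6.71 and 6.92, 7.90 and 7.93, and 8.75. The 3 genotypes were in the same order in both sexes with no overlap. CG8850, an amino acid transporter with the synonym DmNAT4, read 3.01 and 3.10, 3.95 and 3.94, and 4.63 and 4.82 in males, and 3.61 and 3.45, 4.76 and 4.69, and 5.65 in females. It had the same order, from P control values below the array median.

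The same order was seen for CG11854 and CG6870. CG11854, of the takeout family of small-ligand binding proteins, was at 8.54 and 8.52 in P control males, 9.80 and 9.83 in act-Gal4 control males and 10.39 and 10.41 with both transgenes. In females it was at 8.56 and 8.54, 9.73 and 9.63, and 11.23. The control levels were nearly the same in both sexes, and the array labelled P/act-Gal4 female lay highest of all 11. CG6870, cytochrome b5-like, read 3.5 and 3.43, 4.50 and 4.57, and 5.20 and 5.31 in males, and 3.40 and 3.14, 5.36 and 5.02, and 6.74 in females. Its P control values lay below the array median, and its female range was the wider.

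CG5770 and CG5773 are adjacent in the gene order of the RefSeq annotation of assembly Release 6 plus ISO1 MT. CG5770 was at 7.01 and 7.26 in P control males, 9.32 and 9.41 in act-Gal4 control males and 9.53 and 9.60 with both transgenes. In females it was at 7.64 and 7.63, 9.32 and 9.23, and 9.79. Most of its range therefore lay between the controls, and the gap above the highest control was 0.12 in males and 0.47 in females. CG5773 lay at 10.04 and 9.84, 10.44 and 10.51, and 11.12 on both arrays in males, and at 9.98 and 9.92, 10.66 and 10.67, and 11.35 in females, in the same order with no overlap.

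CG8501 was at 6.87 and 6.53 in P control males, 7.27 and 7.24 in act-Gal4 control males and 8.46 and 8.33 with both transgenes, and at 7.28 and 7.36, 7.61 and 7.61, and 8.82 in females. CG1773, a trypsin-like serine protease, was at 5.09 and 5.46, 5.75 and 5.53, and 6.99 and 7.07 in males, and at 5.23 and 5.41, 6.66 and 6.52, and 7.30 in females. CG6357, a cathepsin-like cysteine protease, was at 3.38 and 3.63, 4.18 and 3.99, and 5.79 and 5.78 in males, and at 3.54 and 3.95, 4.35 and 4.48, and 5.27 in females. In all 3 genes the arrays with both transgenes were highest, and the change was 2.67-fold, 2.98-fold and 3.97-fold in males and 2.56-fold, 2.53-fold and 2.29-fold in females. The male control mean of CG6357 was under 4.

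**Figure D1:**
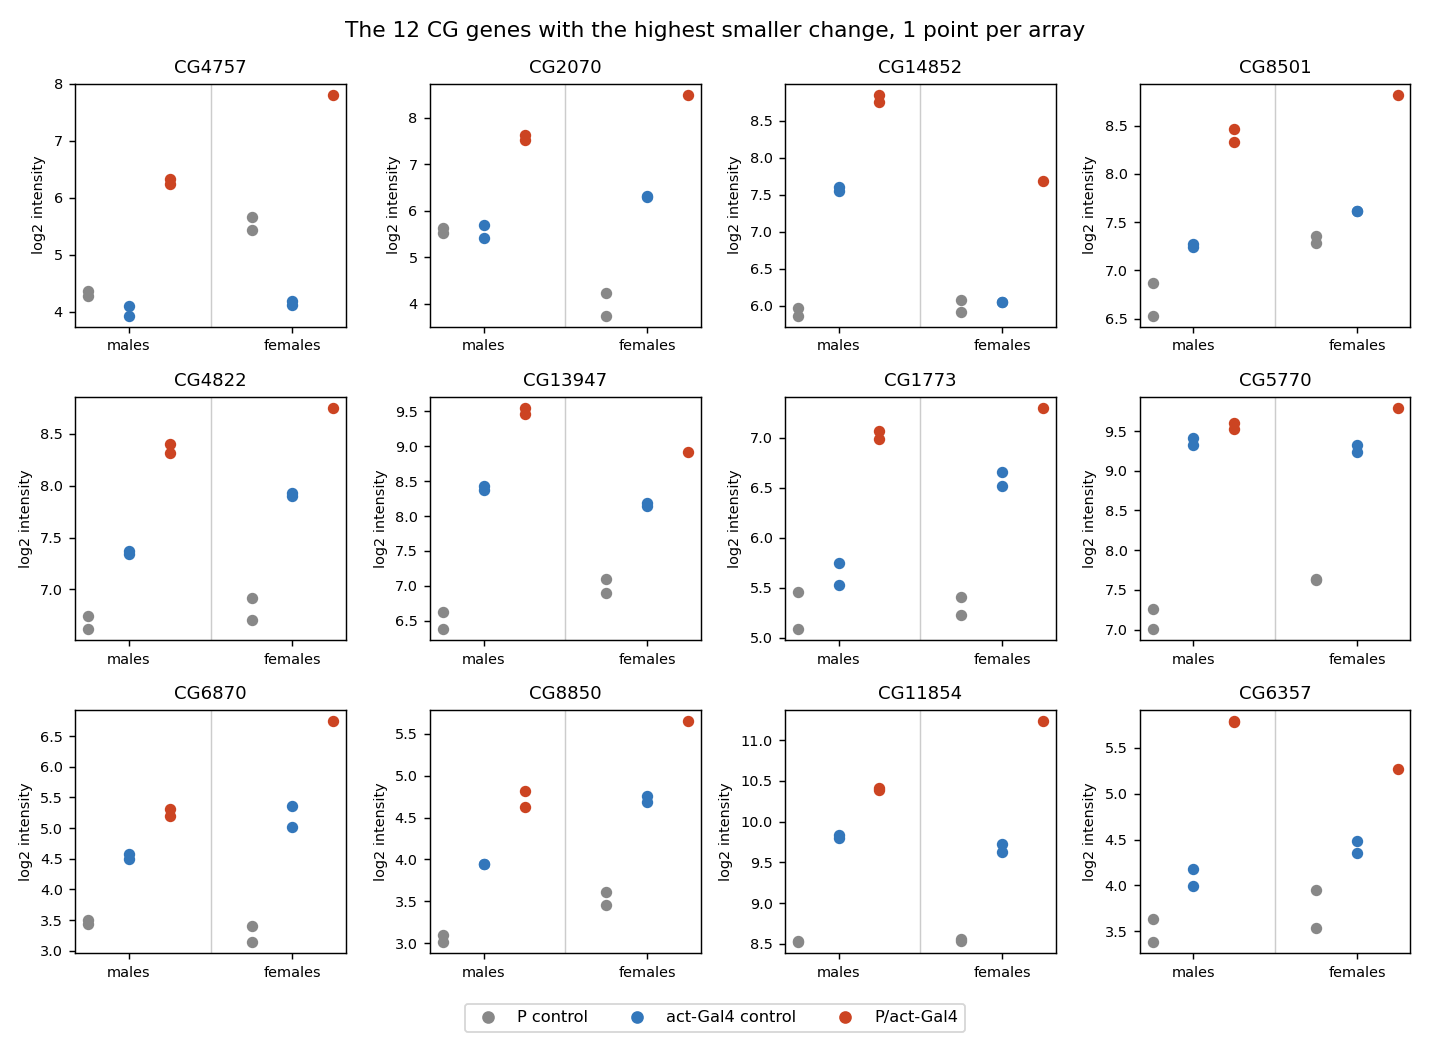
Log2 intensity (vertical axes, 1 scale per gene) of the 12 genes with the highest smaller change, 1 point per array, for males (left of each panel) and females (right). Points with both transgenes lie above all 4 control points of their sex in each panel, by which the genes were chosen, while the distance between the control crosses runs from none visible (CG14852 females) to most of the range (CG5770 males).

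The male and female changes were similar for most of the set and far apart for a few. They lay within 0.25 of each other for 78 genes and within 0.5 for 104, and the female change was the larger for 74. In P/act-Gal4 males the level of CG13659, an ecdysteroid kinase-like gene, was 6.84 and 6.80 against 4.62 to 4.78 on the male controls. For the array labelled P/act-Gal4 female it was 6.13 against 5.32 to 5.59, so that the change was 2.12 ± 0.089 (SE) in males and 0.63 ± 0.115 in females. CG4716 likewise changed by 2.10 in males and 0.90 in females, and CG12116, a short-chain dehydrogenase, by 1.63 and 0.61. The opposite was seen for CG5697, at 0.62 and 2.08, CG9452, an acid phosphatase, at 0.81 and 1.99, and CG6870, at 1.25 and 2.51.

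**Figure D2:**
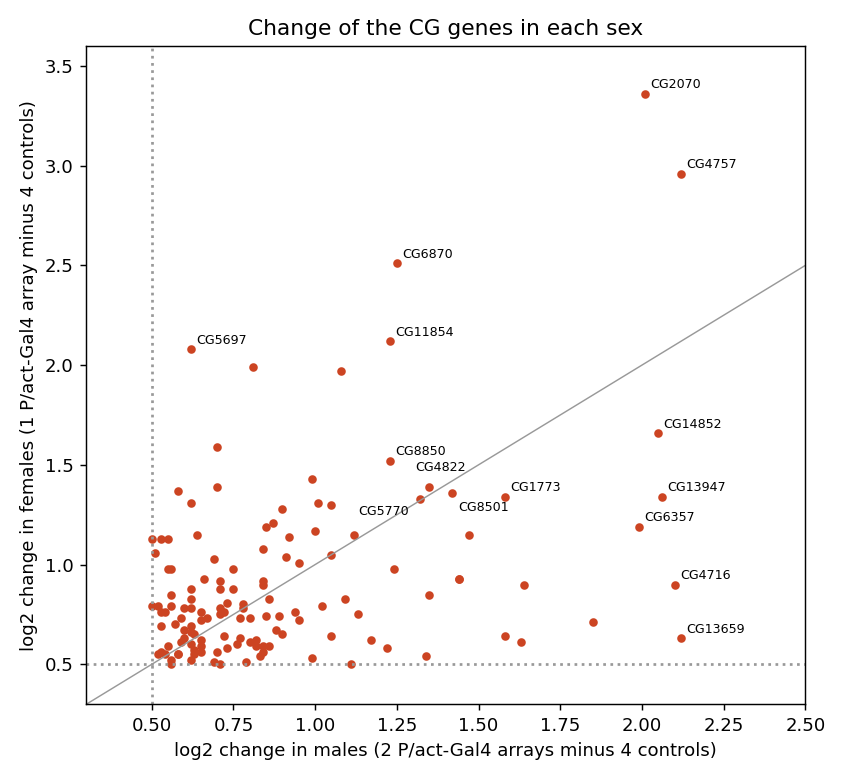
Log2 change in females (1 array minus the mean of 4 controls, vertical axis) against males (mean of 2 arrays minus the mean of 4 controls, horizontal axis), 1 point per gene. Dotted lines mark the threshold of 0.5 and the solid line equal changes; 78 of the 134 genes have changes within 0.25 of each other, and CG2070 and CG4757 lie alone at the upper right.

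Whether the control crosses themselves differed was asked because each control carries a transgene of its own. In males 54 of the 134 genes passed limma's test for act-Gal4 minus P control at an adjusted p under 0.05, 40.3% against 23.1% of all genes, and 46 of them were higher with act-Gal4 (34.3% against 13.3%). In females 57 passed, 42.5% against 20.0%, and 52 were higher with act-Gal4 (38.8% against 9.95%). The median difference was 0.20 in males and 0.24 in females, against 0.00 and 0.01 over all genes. The male count was 33 without act-Gal4 control male replicate 1 or without replicate 2, where 10.1% and 10.4% of all probesets passed, against 18.4% with every array.

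Bright probesets pass such a test more often, and these genes were brighter than most, with a median log2 mean of 5.88 against 4.31 for all genes with a bare CG number. Of the 100 members above the lower quartile of the set by level, 44 passed in males and 37 of them were higher with act-Gal4. Among all 5970 genes at least that bright the shares were 35.6% and 21.8%. In females 39 passed and 34 were higher, where the shares of such genes were 29.3% and 15.0%. The share higher with act-Gal4 lay above that of the genes at least this bright in both sexes, and the share passing in either direction was closer to its own. Brightness was cut only from below, and levels above the cut were not matched. A gene whose arrays with both transgenes must exceed the highest control is not chosen independently of the control levels, and the part of this in the shares was not tested.

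**Figure D3:**
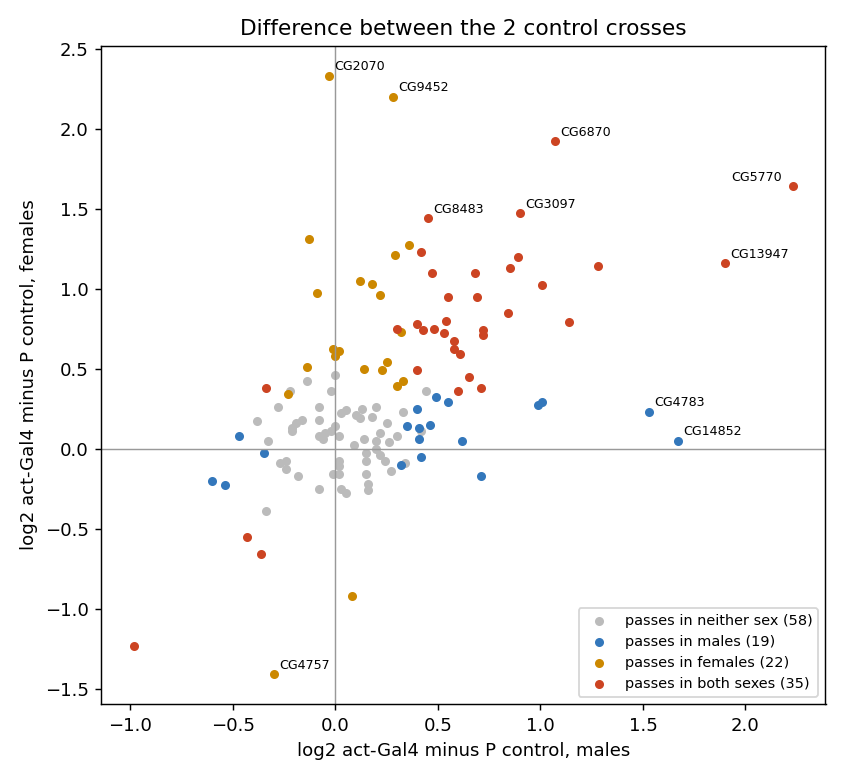
Log2 act-Gal4 control minus P control in females (vertical axis) against males (horizontal axis), 1 point per gene, each the difference of means of 2 arrays. Colours give where the difference passed limma's test. Of the 134 genes, 35 passed in both sexes, most of them at the upper right, and 58 passed in neither. No share of all genes was computed for these counts.

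The difference passed in both sexes for 35 genes. It was higher with act-Gal4 in both sexes for 31 of these, lower in both for CG13461, CG7220 and CG1888, and of opposite sign for CG11509. The shares of all genes passing in both sexes or in neither were not computed, and nothing is read from these counts. For the 31 genes the levels stood in the order of P control, act-Gal4 control and P/act-Gal4, an order that their selection fixes. The median first step was 0.65 in males and 0.80 in females, and the median second step was 0.59 and 0.68. Over all 134 the first step was 0.20 and 0.24. For the whole set the medians were 0.87 and 0.91 over the P control and 0.67 and 0.69 over the act-Gal4 control. The highest control array was one of act-Gal4 for 91 genes in males and 96 in females, and 75 of the 134 stood at least 0.5 over each control alone in both sexes. Over the act-Gal4 control alone this held for 108 in males and 103 in females (10.8% and 7.26% of all genes), and over the P control alone for 125 and 127 (10.4% and 10.1%), counts that follow in part from the choice.

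**Figure D4:**
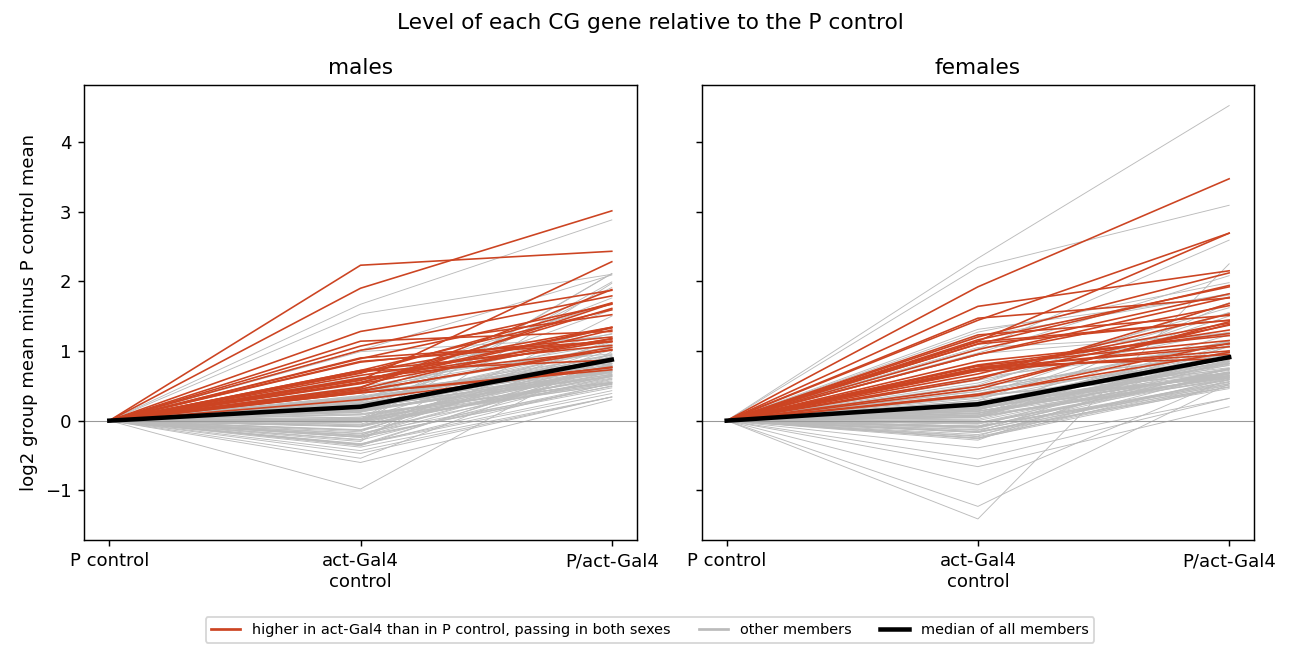
Group means of each gene relative to its P control mean (log2, vertical axis) in males and females, 1 line per gene across the 3 genotypes, with the 31 stepped genes in red and the median of all 134 in black. The black line rises to 0.20 and 0.87 in males and to 0.24 and 0.91 in females.

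In males the largest control differences were those of CG5770 (2.23 ± 0.102, adjusted p = 9.52e-08), CG13947 (1.90 ± 0.109), CG14852 (1.67 ± 0.094) and CG4783 (1.53 ± 0.123). In females they were CG2070 (2.33 ± 0.147, adjusted p = 8.83e-07), CG9452 (2.20 ± 0.101), CG6870 (1.92 ± 0.125) and CG5770 (1.64 ± 0.102). Each is act-Gal4 over P, with no overlap of the arrays. CG4783 was at 4.55 and 4.52 in P control males, 6.01 and 6.13 in act-Gal4 control males and 6.57 and 6.71 with both transgenes. In females its controls, at 5.90 and 5.83 with P and 6.29 and 5.90 with act-Gal4, were nearly level and the array with both read 6.53. CG9452 was the reverse case, at 5.66 and 5.57, 5.94 and 5.84, and 6.65 and 6.47 in males, but at 4.65 and 4.67, 6.94 and 6.77, and 7.75 in females. The male minus female difference of the control difference, a comparison added after the data were seen, passed for 29 of the 134 (21.6%, against 10.3% of all genes), 10 with the higher value in males (6.68% of all genes) and 19 in females (3.65%).

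The genes lower with act-Gal4 than with P were led by CG4757 in females (−1.41 ± 0.106, adjusted p = 3.41e-06). CG13461 was at 6.40 and 6.67 in P control males, 5.63 and 5.49 in act-Gal4 control males and 7.52 and 7.53 with both transgenes. In females it was at 5.91 and 6.49, 5.04 and 4.90, and 6.73. Its P control arrays were above its act-Gal4 arrays in both sexes (−0.98 in males and −1.23 in females), and both transgenes together were above either. A further 58 genes passed in neither sex, of which 36 had control crosses within 0.25 of each other in both. Among these 58 the median change with both transgenes was 0.67 in males and 0.66 in females. They included CG13659, CG4716, CG10799 and the fatty acid elongase gene CG6660 (1.12 in males and 1.15 in females).

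A biochemical class could be given to 41 of the 134 from general knowledge or from RefSeq synonyms, and 93 were left without one. These classes were assigned with the values in view. The 8 peptidases and peptidase inhibitors, a group of digestive and haemolymph proteins, had median changes of 0.85 in males and 1.31 in females. All 8 were higher with act-Gal4 than with P in females and 6 of them in males. The shares in females and males were 38.8% and 34.3% over the 134, from which the class was drawn, and 9.95% and 13.3% over all genes. The zinc carboxypeptidase gene CG3097 differed by 0.90 in males (adjusted p = 9.3e-05) and 1.47 in females (adjusted p = 1.64e-06), and the trypsin-like gene CG10764 by 1.01 and 1.02. The Kunitz-type inhibitor genes CG31778 and CG3513 differed by 0.55 and 0.61 in males and by 0.95 and 0.59 in females. CG4650, a serine protease homolog, was level between male controls (0.02) and differed by 0.61 in females.

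Membrane transport held 11 genes, with medians of 0.80 and 0.76. Only CG4822 and CG8850 differed between the controls in both sexes, and the organic cation transporter CG6126 did in males (0.41, adjusted p = 0.00913). The amino acid transporters CG13384, CG16700, CG30394 and CG13796 did not pass in either sex, with differences of −0.28 to 0.26. The 8 genes of lipid and ester metabolism had medians of 0.72 in both sexes. Besides CG4757 they included the lipases CG6283, CG4267 and CG6753, the elongases CG6660 and CG31523, the desaturase CG15531 and the sterol acyltransferase CG8112. CG6283 and CG8112 were higher with act-Gal4 in both sexes, whereas CG4267 was lower in males (−0.35, adjusted p = 0.0209) and CG4757 in females. The 6 redox enzymes ranged from 0.65 to 2.01 in males and from 0.59 to 3.36 in females. Among them the cytochrome b561 gene CG13078, of a family of transmembrane electron carriers, changed by 1.85 in males and 0.71 in females. Of the 3 genes of secreted binding proteins, CG11854 and CG8483, of the CAP family, were higher with act-Gal4 in both sexes and CG12780 in males. CG8483 read 6.40 and 6.18, 6.75 and 6.72, and 7.60 and 7.59 in males, and 5.64 and 5.78, 7.14 and 7.16, and 8.40 in females, so the step between the controls was the larger in females.

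Ecdysteroid kinase-like genes encode a large insect family related to enzymes that phosphorylate ecdysteroids, the moulting hormones. CG31102, CG13659 and CG31370 belong to it and lie together on arm 3R, with CG13659 and CG31370 adjacent and 2 genes between CG31102 and CG13659. RefSeq synonyms place 46 measured genes in the family. Of its 43 other genes, 15 were called higher and 6 lower in P/act-Gal4 males, against 19.7% and 16.8% of all genes, and 2 higher and 15 lower for the array labelled P/act-Gal4 female, against 11.3% and 8.34%, with medians of 0.09 and −0.19. The family as a whole did not share the direction of its 3 members in females.

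The 134 genes were spread over all large arms. There were 21 on the X (15.7%, against 16.9% of all genes with a bare CG number), 25 on 2L (18.7% against 18.3%), 33 on 2R (24.6% against 19.2%), 20 on 3L (14.9% against 20.0%) and 34 on 3R (25.4% against 24.1%). CG11509 has no place of its own in the RefSeq table, which lists it as an old tag of br (broad), an ecdysone-induced transcription factor gene. CG11509 changed by 0.95 in males and 0.72 in females. Of 5 br probesets, the brightest changed by 0.75 in males and 0.79 in females, and the next by 0.67 and 0.54. The others, by falling brightness, stood at −0.01, −0.25 and −0.13 in males and at 1.13, 0.54 and 0.33 in females. In gene order 6 of the 133 placed members were adjacent to another, in the pairs CG4716 with CG10799, CG5773 with CG5770, and CG13659 with CG31370. Within 5 places there were 8 pairs, among them the acid phosphatase genes CG9449 and CG9452. How often as many other genes would lie so close was not computed, and no clustering is read from these counts. The 220 flanking genes outside the set had median changes of 0.01 and 0.07, and 23.6% of them were called higher in males and 15.9% in females, against 19.7% and 11.3% of all genes.

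A further probeset was present for 11 members, 16 probesets in all. Of these, 10 had a positive change in both sexes, and all 6 with a mean of at least 4 did so, though some by little. The median change of the 16 was 0.22 in males and 0.24 in females, against 0.77 and 0.78 for the 134. Only CG4716 (1.78 in males and 0.85 in females) and CG9449 (0.74 and 1.42) passed 0.5 in both sexes on the further probeset. A probeset of CG17754 nearly as bright as the one used (log2 mean 8.38 against 8.44) changed by 0.21 in males, against 0.59. In females that probeset changed by 0.56, against 0.61. The dim probesets of CG43658, CG44098 and CG1407 stood between −0.13 and 0.18. Those of CG13784 stood at 0.32 and 0.09 in males and at −0.09 and −0.19 in females. The control mean was under 4 for 23 members in males and 12 in females. It was lowest for CG42717, at 2.72 in males and 2.62 in females, and for CG4650, at 2.82 and 3.05, below every array median. No detection calls were used, so how far such levels lie above background is not known. The level in controls was lower in males than in females for 102 members, 76.1% beside 74.9% of the 4247 genes with a bare CG number inside the same limit.

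Lists of marker genes were read in the same arrays because whole larvae hold many tissues. Over all genes, 19.7% were called higher and 16.8% lower in males, and 11.3% and 8.34% in females. Of 14 measured genes of the ecdysone response, 9 rose and none fell for the array labelled P/act-Gal4 female, with a median of 0.70, whereas 5 rose and 5 fell in males, with a median of 0.08. Hemocyte markers rose in males for 6 of 8 genes (median 0.66) and in females for 1, with 2 falling (median 0.01). Their summed level was 9.42 to 9.46 in P/act-Gal4 males against 8.43 to 8.56 and 9.67 to 9.70 in P and act-Gal4 controls. In females it was 9.24 with both transgenes, 9.08 to 9.14 with P and 10.29 to 10.32 with act-Gal4. The act-Gal4 controls were thus above the P controls in both sexes for this list. The summed fat body level was likewise higher with act-Gal4 (14.75 in males and 15.05 to 15.07 in females) than with P (14.37 to 14.39 and 14.28 to 14.30), and so was the 1 measured cuticle gene (11.20 to 11.26 and 11.16 to 11.20 against 9.05 to 9.15 and 10.13 to 10.14). The muscle sum was higher with act-Gal4 in males (13.14 to 13.16 against 12.75 to 12.78) and lower in females (13.03 to 13.06 against 13.19 to 13.21). The salivary gland sum was higher with act-Gal4 in both sexes. The nervous system sum was lower with act-Gal4 in males (8.14 to 8.22 against 8.70 to 8.74) and in females (8.47 to 8.57 against 8.91 to 9.02). The stress sum was likewise lower in both sexes. For the other lists the sexes differed in direction or the controls overlapped in 1 sex. Muscle markers fell for 3 of 4 genes in males and all 4 in females, with medians of −0.69 and −1.11. The fat body and midgut lists, for 7 and 8 genes, had medians of 0.15 and 0.17 in males and 0.11 and −0.09 in females. The part of any of these lists in the changes or control differences of the 134 genes was not tested.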

How the data were processed

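Total RNA of whole third-instar larvae was measured on 11 one-colour Affymetrix Drosophila 2.0 arrays. The deposited values are intensities on a linear scale, 1 per probeset and array, made with RMA per the submitters' processing notes. The version, the options and whether all arrays were normalized together are not given in the sources used here, and the genome build is likewise not given. Log2 of each deposited intensity was taken without pseudocount or filter. The number of arrays limits the precision.

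Of 18952 probesets, 183 controls were left out and 18769 tested. The platform table gives 1 gene for 13647 of these, several for 402 and none for 4720. Each of 11983 genes was read from its probeset of highest mean. Symbols, chromosome arms and gene order came from the RefSeq table of assembly Release 6 plus ISO1 MT, which held 11894 of the genes. No sequences were used.

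Group means of 6 groups, from the titles, were fitted jointly (limma 3.58.1, lmFit and eBayes, R 4.3.3), with 5 residual degrees of freedom and 6.29 from the prior. The spread of the lone female array with both transgenes was taken from the other groups. Adjusted p-values follow Benjamini and Hochberg over all probesets of a comparison, and an adjusted p under 0.05 was called. Errors are standard errors of the fit. The fit was tested on simulated data with independent noise, which held no structure of populations or technical replicates. Tables and figures were made with pandas 2.3.3 and matplotlib 3.10.9.

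The members, marker lists and tests were chosen with earlier results of these data known. Members named with all values were the 12 with the highest smaller change. Further named were the 5 with the largest change in each sex, the 3 on each side of the threshold, the 4 with the largest control difference in each sex, the 3 with the largest sex difference, adjacent members and those with another probeset. Members of a biochemical class and those whose controls differed in both sexes were named after their values were seen. The 12 marker lists were those of fat body, midgut, hemocyte, salivary gland, muscle, nervous system, male and female germline, epidermis, Malpighian tubule, ecdysone response and stress. Alternatives were other scalings, probeset choices, thresholds, single controls, limma options and each array left out.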

Additional observations from a re-analysis of the deposited data

Results flagged for a closer look

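For 10 of the 17 genes named for their change or their control difference, the difference between the control crosses (log2 act-Gal4 minus P) was not the same in males and females by limma's test of that difference, which was added after the data were seen. Among all genes 10.3% passed this test. Some of the 17 were named for a large control difference in 1 sex, so the count of 10 follows in part from the naming and nothing is read from it. The signed difference was higher in males for 5 of them. CG14852 differed by 1.67 in males and 0.05 in females, 1.62 ± 0.133 (SE) apart (adjusted p = 5.39e-05). CG4783 differed by 1.53 and 0.23, which is 1.30 ± 0.174 apart (adjusted p = 0.00115). For the carboxylesterase gene CG4757 both values were negative, −0.30 and −1.41, and 1.10 ± 0.150 apart (adjusted p = 0.00126). The control crosses of CG4757 thus lay further apart in females. CG13947 and CG5770 were higher with act-Gal4 in both sexes, and the sexes were 0.74 ± 0.154 (adjusted p = 0.013) and 0.59 ± 0.144 (adjusted p = 0.027) apart.

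The signed difference was higher in females for the other 5. CG2070, the short-chain dehydrogenase gene, was level between male controls (−0.03) and differed by 2.33 in females, so that the male minus female value was −2.35 ± 0.207 (adjusted p = 9.59e-05). For the acid phosphatase gene CG9452 that value was −1.92 ± 0.143 (adjusted p = 2.51e-05), from 0.28 in males and 2.20 in females. It was −0.91 ± 0.186 for the serine protease gene CG1773 (adjusted p = 0.0115). It was −0.85 ± 0.177 for CG6870 (adjusted p = 0.0129) and −0.85 ± 0.185 for CG5697 (adjusted p = 0.0157). Each value rests on 2 arrays per control and sex, and no cause of the differences was tested.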

How the results depend on the processing

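Of the 5196 genes, 2.58% met the criteria. The share was 3.95% against the P control alone, 0.366% (19 genes) at a change of at least 1 and 6.20% (322 genes) at 0.25. With 1 array left out it ran from 2.37% to 2.69% (123 to 140 genes). After a further quantile normalization 105 genes met them, 104 of them among the 134, and against the act-Gal4 control alone 116, with 84 shared. The median female change was 0.91 over the P control alone, and the median male minus female difference of the controls was −0.40 with arrays at a common median. With 1 array left out the median change ran from 0.73 to 0.83 in males and from 0.77 to 0.80 in females. The number of genes passing for act-Gal4 minus P control ran from 33 to 60 in males, at 33 without act-Gal4 control male replicate 1 or 2, and from 47 to 58 in females. The share of all probesets passing moved with it, from 10.1% to 20.5% in males and from 11.6% to 16.6% in females. Under the other settings it was 52 to 64 in males, beside 18.1% to 40.7% of the probesets tested, and 43 to 64 in females, beside 8.59% to 32.7%. The upper shares belong to bright probesets only, where 124 members were tested. Each of the 8 largest control differences kept its direction and call in all 152 alternative values, with adjusted p of at most 0.00094. In many of these the difference could not change, as when an array outside the controls of that sex was left out. A looser threshold could lose no call, and the 8 were chosen as the largest, so the count is no measure of robustness. No value for females with both transgenes exists without their single array, and changes from levels at or below the array median may be understated. No paired analysis was possible because the labels give no replicate numbers and tie no array to a population.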

Other observations

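The remaining marker lists were read for the same contrast. Over all genes, the shares called higher and lower were 19.7% and 16.8% in males and 11.3% and 8.34% in females. Counts near these shares are not read as a result about a list. Of 8 salivary gland genes, mostly secreted glue proteins of the late larva, none rose and 6 fell in P/act-Gal4 males (median −0.30), while 4 rose and 3 fell for the array labelled P/act-Gal4 female (median 0.34). All 3 measured stress genes, which encode heat shock proteins, fell in males (median −0.72), and 2 of them rose in females (median 0.62). Of 5 nervous system genes, 3 rose in males (median 0.38) and 1 in females (0.05). Of 9 male germline genes, 1 rose and 4 fell in males (−0.16), and 3 rose in females (0.02). Of 7 female germline genes, 1 rose in males (−0.01), and 1 rose and 1 fell in females (−0.04). The 1 measured cuticle gene fell in both sexes, by 3.46 and 1.08. Neither of 2 Malpighian tubule genes passed in either sex (0.07 and −0.03). None of these lists was tested as a whole, and single genes passed by limma's adjusted p.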
